A study of Mus musculus with 4 samples.

Results

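The cells described here are Ccr2 MHC class II macrophages of the mouse aortic adventitia, the outer connective tissue layer of the vessel. They were chosen by their raw counts of unique molecular identifiers (UMIs, single captured RNA molecules) in the library of aged adventitia. A cell had to show 200 genes or more, with no more than 10% of its UMIs from mitochondrial genes, at least 5 UMIs of C1qa, C1qb and C1qc together and at least 1 UMI of Ccr2, Clec12a and Lyz1 together. It could hold at most 1 UMI of Lyve1, Cd163, Cd209f and Cd209g together, at most 1 UMI of Alox15, Serpinb2 and F10 together, and none of Cd3d, Cd3e or Cd79a. This gave 176 cells of the 8497 that passed the filters in the library, a share of 2.07% (95% exact Clopper-Pearson interval 1.78 to 2.40%), and of 14831 cells in the whole series. Because RNA levels chose the cells, the levels of those genes are described, and no test of them is read as a result.

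The series holds single-cell RNA from 4 libraries of C57BL/6 mouse aorta: aged adventitia, a pair of libraries of aged descending intima and a library of young arch intima. The intima is the inner layer of the vessel, which was freed by trypsin and scraping in the presence of actinomycin D, an inhibitor of transcription. The descending libraries were pools of 6 mice each and that of the arch was a pool of 8, while the number of mice for the adventitia, the sex and the exact ages are not given in the sources used here. The adventitial library carries the text of the intimal protocol, so how the adventitia was taken apart is not known, and mice, tissue and library preparation cannot be told apart there. No gene was altered and no treatment was compared.

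Ccr2 encodes the receptor by which monocytes leave the bone marrow and enter tissues, and in many tissues macrophages that carry it are replaced from blood monocytes. Arterial adventitia also holds resident macrophages marked by Lyve1 and Folr2, which maintain themselves with little input from blood. MHC class II molecules, made of an alpha and a beta chain and assembled with the invariant chain Cd74, display peptides on the cell surface to CD4 T cells.

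The class II chains H2-Aa and H2-Eb1 are shown by their promoters, since class II genes mark these cells and are switched on together through shared promoter boxes. The sequences are from RefSeq (GRCm38.p6), the 150 bases just before the start of transcription, and capitals mark the Y box CTGATTGG, which is bound by the factor NF-Y. H2-Aa lies on the minus strand at chr17:34287824-34287973 and H2-Eb1 on the plus strand at chr17:34305717-34305866.
H2-Aa: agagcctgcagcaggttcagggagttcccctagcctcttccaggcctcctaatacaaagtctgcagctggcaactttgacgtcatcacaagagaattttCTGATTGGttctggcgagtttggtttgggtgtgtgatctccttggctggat
H2-Eb1: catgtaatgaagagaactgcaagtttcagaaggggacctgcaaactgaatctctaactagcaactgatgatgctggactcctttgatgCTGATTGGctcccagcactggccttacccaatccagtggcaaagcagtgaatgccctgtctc
The first base of the box lay 51 bases before the start of H2-Aa and 62 bases before that of H2-Eb1. The box was searched as CTGATTGG and, for the other strand, CCAATCAG. It was present in 1035 of 32817 promoter windows of this length (3.15%), and in 4 of the 8 H2 genes of the class II list that had an entry, of 9 in the list. A match is a string of letters and was not shown to be bound here.

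The cells had a median of 3527 UMIs, with a lowest cell of 1407 and a highest of 10575, and 684059 UMIs in all. Over the libraries, cells had median depths from 2551 UMIs in the adventitia to 7037 in the young arch. The adventitial library shared 27, 29 and 31 barcodes with the other 3 libraries, and of the gated barcodes 1 was shared with the first descending library and 1 with the arch library. Of the 176 cells, 6 held at least 5% haemoglobin UMIs, up to 69.8%, and 16 held at least 10 UMIs of the fibroblast collagen and matrix genes Dcn, Col1a1 and Col3a1. Leaving out both kinds left 155 cells, and values without them are given for each of the highest and lowest ratios that moved by over 1.5 times. The highest doublet scores of the library held 18 of the 176 cells, and 12 of these 18 were among the cells with haemoglobin or fibroblast RNA.

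Cells just inside and just outside each limit were counted. There were 19 cells with exactly 5 C1q UMIs, against 36 cells that missed the gate only by having 4. With a single UMI of Ccr2, Clec12a and Lyz1 there were 56 cells, against 103 that had none and met all the other limits. With 1 UMI of the Lyve1 set there were 53 cells inside and with 2 UMIs 29 outside, and for the Alox15 set 19 and 9.

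The 3 genes that opened the gate overlapped in part. Ccr2, the chemokine receptor, was found in 96 cells, Clec12a, an inhibitory lectin of myeloid cells, in 78 and Lyz1, a lysozyme, in 109. All 3 were found together in 22 cells and exactly 2 of them in 63, while 25 cells had only Ccr2, 29 only Clec12a and 37 only Lyz1. The shares of cells with a UMI were 54.5%, 44.3% and 61.9%. The fibroblasts were 1470 cells with at least 10 UMIs of Dcn, Col1a1 and Col3a1 and none of Cd3d, Cd3e or Cd79a. In these cells of the same library, which have a similar median depth of 3476 UMIs, the shares were 2.72%, 1.16% and 10.8%. Fibroblasts should lack these genes, but C1q cells were not left out, and 16 cells of the group are gated cells. When each cell was thinned to 1000 UMIs the shares in the gated cells were 29.0%, 16.5% and 38.1%, and in fibroblasts 0.680%, 0.408% and 2.86%.

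The macrophage label was checked on markers outside the gate, which itself required C1qa, C1qb and C1qc. Csf1r, the receptor for the macrophage growth factor, had a UMI in 67.6% of the cells, against 42.5% of the monocytes and 6.67% of fibroblasts. Adgre1, the surface protein F4/80, had one in 51.1%, against 21.9% and 3.13%. Of 11 macrophage markers compared with monocytes, 7 were at least 2-fold higher and 0 lower, against 11.1% of all 2771 genes higher. The 7 include C1qa, C1qb and C1qc, which the gates fixed. Without the cells rich in haemoglobin or fibroblast RNA, Fcgr1 and Cd14 were close in both groups (ratios 1.11 and 1.21). Against Lyve1 macrophages 0 of 11 markers passed 2-fold in either direction, with a median log2 ratio of -0.46. Of the dendritic cell markers Xcr1 was at 0 UMIs, Flt3 had 2 and Zbtb46 had 1, but Batf3 had 91, in 31.2% of the cells, against 12.2% of Lyve1 macrophages. The 9 markers summed to 222 CPM (UMIs per 1000000 UMIs of the group) against 296 in the Lyve1 macrophages of the library, where 241 of 337 UMIs were of Cd209a, and 54.7 in the serosal-like macrophages. The defining T and B cell genes Cd3d, Cd3e and Cd79a were at 0 by the gate. Markers of monocytes summed to 566 CPM against 8469 in the monocytes of the library.

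Of the 5 markers, the class II chains were found in the largest shares of the cells. H2-Aa, the alpha chain of I-A, had a UMI in 98.9% of the cells (95.9 to 99.9%, exact interval), with 0 UMIs in the lowest cell, 32 in the median cell and 136 in the highest. H2-Eb1, the beta chain of I-E, had a UMI in 96.6%, from 0 over a median of 28 to 123 UMIs. All of H2-Aa, H2-Ab1, H2-Eb1 and Cd74 were found together in 167 of the 176 cells. Class II RNA was also counted in fibroblasts, which should lack it but here include 16 gated cells: 52.8% of them had a UMI of H2-Aa. After thinning to 1000 UMIs the share was 94.3% in the gated cells and 21.7% in fibroblasts.

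The gated cells were set beside 3 other groups of the same library, each chosen by raw UMIs in the same way. Lyve1 macrophages (328 cells) had at least 5 C1q UMIs and at least 2 of the Lyve1 set, and 131 of them also had a UMI of Ccr2, Clec12a or Lyz1. Serosal-like macrophages (111 cells) had at least 5 C1q UMIs and at least 2 of the Alox15 set, which marks macrophages of body cavities. Monocytes (73 cells) had at most 1 C1q UMI with UMIs of Ccr2 and Ly6c2 and at least 3 of Lyz2. Their median depths were 3304.5, 5661 and 3642 UMIs. All are cells of 1 library, so no test was made between them. Levels in CPM are of the summed UMIs of a group, and ratios have exact 95% binomial intervals that cover counting error only, since mice and libraries are not replicated. Genes were compared with at least 30 UMIs in both groups together and 50 CPM in either, and a 2-fold ratio was counted as a difference.

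The median class II level was higher in the gated cells than in the other 3 groups. Per cell, H2-Aa, H2-Ab1, H2-Eb1 and Cd74 together made up a lowest value of 4.92, a median of 623 and a highest of 1234 UMIs per 10000. In Lyve1 macrophages the lowest, median and highest were 3.83, 304 and 1248. The serosal-like macrophages had a median of 12.6 (1.52 to 806) and the monocytes one of 13.2 (0 to 1040). The ranges overlapped between all groups, and the medians of the serosal-like macrophages and monocytes lay near the lowest gated cells.

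**Figure D1:**
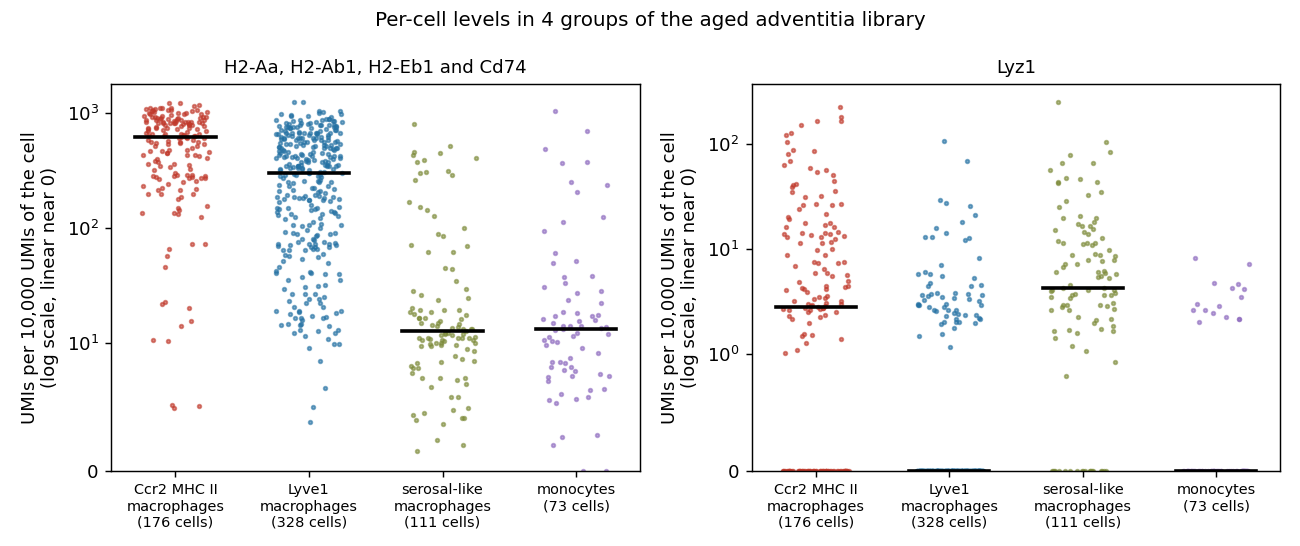
UMIs per 10000 UMIs of each cell for the class II genes (left) and for Lyz1 (right) in the gated cells, Lyve1 macrophages, serosal-like macrophages and monocytes of the aged adventitia, with 1 point per cell and a bar at the median, on an axis that is logarithmic except near 0. The class II medians are 623, 304, 12.6 and 13.2, and the Lyz1 medians are 2.80, 0, 4.22 and 0.

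The class II chains and their loading factors were more abundant in the gated cells than in the Lyve1 macrophages, but most did not pass 2-fold. H2-Aa was at 9245 CPM against 6052, a ratio of 1.53 (1.48 to 1.58), and H2-Eb1 at 8036 against 5030.0, a ratio of 1.60 (1.54 to 1.66). H2-DMb1, which helps to load peptides in the endosome, was at 745 against 321, a ratio of 2.32 (2.02 to 2.66). Of 11 class II presentation genes compared, 2 were past 2-fold higher (H2-DMb1 and its close copy H2-DMb2) and 0 lower, with a median log2 ratio of 0.68. For all 2603 genes, 126 were past 2-fold higher (4.84%) and 106 lower (4.07%), 8.91% in either direction, with a median of 0.06. Lgmn, a lysosomal protease that processes antigen, went the other way at 491 against 869 CPM, as did the costimulatory ligand Cd86 at 80.4 against 116.

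**Figure D2:**
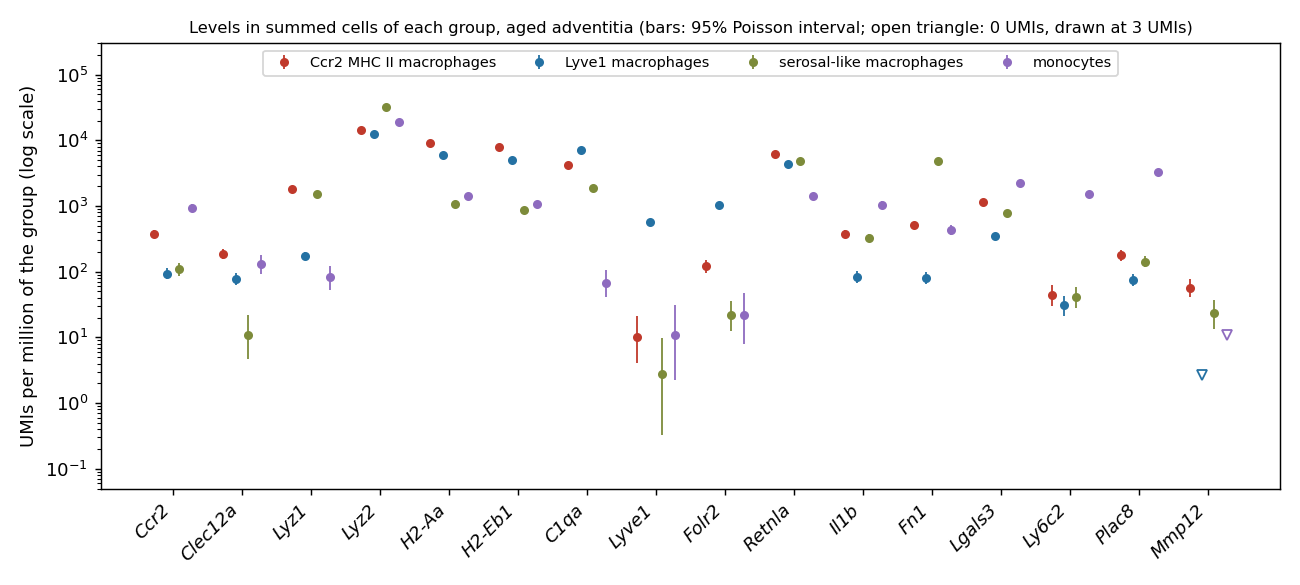
CPM (log axis) of 16 genes in the summed cells of the same 4 groups, with 95% exact Poisson intervals and open triangles at the level of 3 UMIs where a group had none. Ccr2 and Clec12a helped to choose the gated cells, and Ccr2 lies at 376 in them, 93.1 in Lyve1 macrophages, 109 in serosal-like macrophages and 946 in monocytes.

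Several genes of monocyte-derived macrophages were higher than in the Lyve1 macrophages. Of 15 compared, 7 were past 2-fold higher and 0 lower, with a median log2 ratio of 0.77, and Ccr2, Clec12a and Lyz1 among the 7 were used to choose the cells. The other 4 were Plac8, a gene of blood monocytes, Chil3, a chitinase-like secreted protein, S100a4, a calcium-binding protein of motile cells, and Napsa, an aspartic protease; all 4 were singled out after their values were seen. Plac8 was at 177 CPM against 75.5, a ratio of 2.34 (1.76 to 3.12), but fibroblasts of the library had 381. Chil3 was at 62.9 against 7.03, a ratio of 8.95 (4.16 to 22.0), from 9 gated cells with up to 15 UMIs. S100a4 was at 323 against 151, a ratio of 2.14 (1.74 to 2.62). Without the cells rich in haemoglobin or fibroblast RNA, Napsa fell short of 2-fold at 1.77 and the count was 6 of 15. Lyz2, the lysozyme of most macrophages, had a ratio of 1.17, at 14580.0 against 12450.0. Lyz1 and Lyz2 are close copies, as are H2-DMb1 and H2-DMb2, Hspa1a and Hspa1b and members of the Cd209 family, and how reads shared by copies were assigned is not given in the sources used here.

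Genes of resident Lyve1 macrophages were lower throughout. All 17 compared were past 2-fold lower, with a median log2 ratio of -2.60. Lyve1, Cd163, Cd209f and Cd209g were held down in the gated cells and required in the others, so their difference was set by the choice of cells. Folr2, a folate receptor outside the gate, was at 121 CPM against 1051, 8.66-fold lower (6.93 to 10.9). It had a UMI in 26.1% of gated cells, against 85.7% of Lyve1 macrophages and 9.86% of fibroblasts. Ccl8, a chemokine that attracts monocytes and T cells, was at 516 against 3132, 6.07-fold lower, and Pf4, a platelet-type chemokine also made by macrophages, was at 1624 against 4685. Selenop, which carries selenium, was 2.79-fold lower.

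The genes with the highest ratios included several from few cells. Mmp12, a macrophage elastase, had 39 UMIs in 7 gated cells, up to 24 in a single cell, and 0 in Lyve1 macrophages, at least 21.6-fold higher against a floor of 3 UMIs. Ppbp, a platelet chemokine, had 38 UMIs in 3 cells, 35 of them in 1 cell. Cxcl14, a chemokine of fibroblasts, was at 238 against 22.8 CPM, but its ratio of 10.4 was 2.55 without the cells rich in haemoglobin or fibroblast RNA. Alas2, which starts haem synthesis in red cells, and Hbb-bt, a beta globin, were 10.6 and 7.03 times higher. Without those cells Alas2 had 3 UMIs against 4, and Hbb-bt had a ratio of 1.12. All 4 red cell genes were past 2-fold higher (median log2 ratio 2.31), and 0 of 4 were once the same cells were left out (median -0.06). Haemoglobin RNA was 16064 UMIs of the 684059 in the gated cells.

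Others of the highest ratios came from more cells. Ear2, an eosinophil-type ribonuclease also made by macrophages, was at 183 CPM against 21.1, a ratio of 8.67 (5.57 to 14.0), in 31 cells. Tnip3, an inhibitor of NF-kB signalling, was at 146 against 19.3, a ratio of 7.56 (4.73 to 12.6), in 47 cells. Cd300c2, an activating receptor of myeloid cells, was at 134 against 24.6, a ratio of 5.47 (3.55 to 8.67), in 56 cells. Cadm1, an adhesion molecule also found on dendritic cells, was at 57.0 against 8.78, a ratio of 6.49 (3.18 to 14.6), in 25 cells, and the ratio was 12.5 without the cells rich in haemoglobin or fibroblast RNA. Fn1, fibronectin, was at 520 against 80.8, a ratio of 6.44 (5.11 to 8.19), in 55 cells, and the ratio was 8.74 without the cells rich in haemoglobin or fibroblast RNA. Fibroblasts had 513 CPM of Fn1, so its level there was close to that of the gated cells.

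The lowest ratios held genes of the resident programme beside those of the gate. Cd209d and Cd209b, lectins of the Cd209 family, were 29.4-fold (16.7 to 57.2) and 23.7-fold (11.9 to 55.3) lower, Fcna, a ficolin of complement, 13.9-fold (9.80 to 20.5) and Timd4, which binds phosphatidylserine on dying cells, 11.4-fold (5.09 to 31.8). Vsig4, a complement receptor, had 2 UMIs in the gated cells against 83, 24.9-fold lower (6.69 to 209). Fxyd2, a subunit of the sodium pump, was 8.92-fold lower and Mmp9, a gelatinase, 8.68-fold lower.

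**Figure D3:**
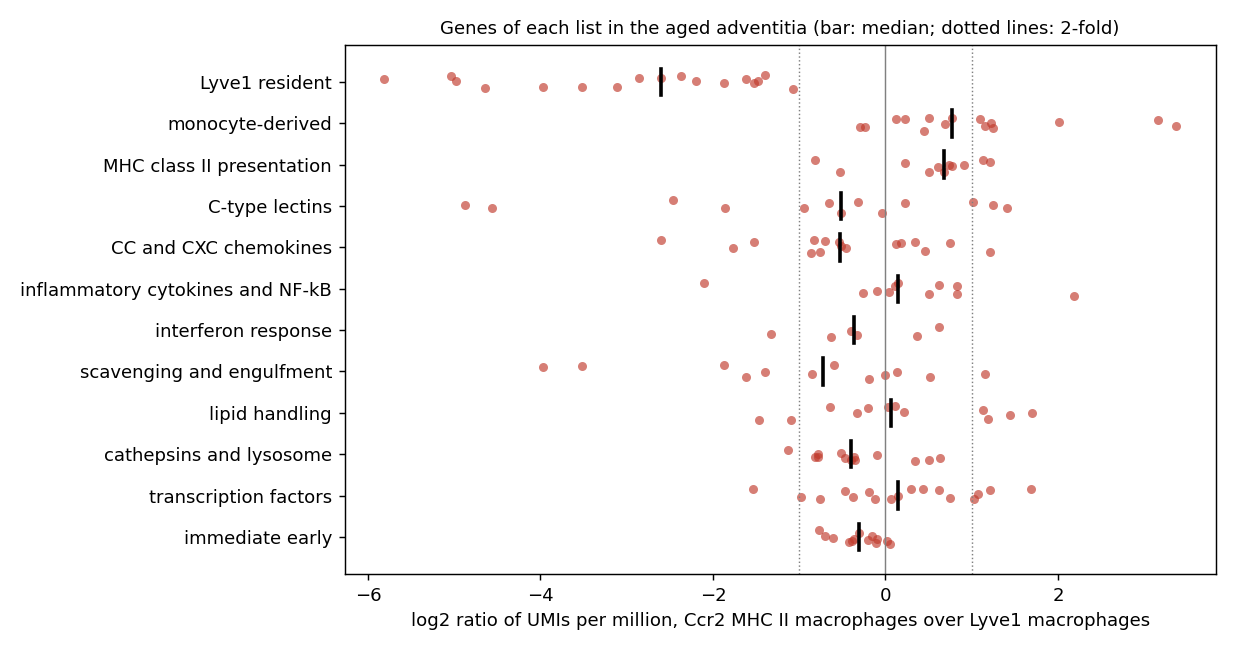
Log2 ratio of CPM between gated cells and Lyve1 macrophages for the compared genes of 12 lists, 1 point per gene, with the median as a bar and 2-fold marked by dotted lines. All genes of the Lyve1 resident list lie left of the 2-fold line (median -2.60), while the class II list has a median of 0.68 and the immediate early list one of -0.30.

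Chemokines were on balance lower than in Lyve1 macrophages, with 1 of 16 past 2-fold higher, 3 lower and a median log2 ratio of -0.53. Ccl6, which attracts myeloid cells, was at 2775 CPM against 4942, a ratio of 0.561 (0.533 to 0.592). Cxcl2, which attracts neutrophils, was at 4656 against 3660.0, a ratio of 1.27 (1.22 to 1.33). The gene past 2-fold higher was Cxcl16, a membrane-bound chemokine that also takes up oxidised lipid, at 189 against 81.7, a ratio of 2.31 (1.75 to 3.05); it was named after its value was seen.

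Over all 176 cells, inflammatory cytokines and NF-kB genes were mostly level, with 1 of 11 past 2-fold higher, 1 lower and a median log2 ratio of 0.15. The higher gene was Il1b, the cytokine interleukin 1 beta, at 379 CPM against 83.5, a ratio of 4.54 (3.57 to 5.80). It had a UMI in 36.4% of the gated cells, 13.4% of Lyve1 macrophages, 8.44% of T cells and 7.48% of fibroblasts, and after thinning in 18.8%, 6.10%, 4.95% and 2.59%. The lower gene was Il10, an anti-inflammatory cytokine chosen after its value was seen, at 23.4 against 100.1. Without the cells rich in haemoglobin or fibroblast RNA they were less level, with 5 of 13 genes higher, 1 lower and a median of 0.65. Of all 2596 genes compared without those cells, 129 were higher and 123 lower, with a median of 0.07. Nfkbia, the inhibitor of NF-kB, was at 1374 against 1333.

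Receptors and uptake genes went in both directions. Of 13 C-type lectins, 3 were past 2-fold higher and 4 lower (median log2 ratio -0.52), and Clec12a among the 3 was used to choose the cells. Clec4e, a receptor of damaged cells and mycobacterial lipid, was at 62.9 against 23.7, and Clec10a, which binds galactose-type sugars, at 111 against 612. Mgl2, a close relative of Clec10a, was at 661 against 1041. Of 12 scavenging genes 1 was higher and 5 lower (median -0.72), with the mannose receptor Mrc1 at 232 against 610.5. Cd163, among the 5, was held down by the gate. Of 6 Fc receptors 1 was higher and 1 lower (median -0.40): Fcgr4, for IgG, was at 86.2 against 33.4 and Fcgrt, which recycles IgG, at 292 against 875. Clec4e and Fcgr4 were chosen after their values were seen.

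Lipid handling genes were also mixed, with 4 of 12 higher and 2 lower (median log2 ratio 0.07). Lgals3, galectin 3 of phagocytes, was at 1150.0 CPM against 355, a ratio of 3.24 (2.87 to 3.66), and Lpl, lipoprotein lipase, at 614 against 281, a ratio of 2.18 (1.88 to 2.53). Apoe, the main lipid carrier of macrophages, was 2.13-fold lower. Fabp4, a fatty acid carrier of fat and macrophages, was level at a ratio of 1.02 (0.971 to 1.07). It was at 3829 CPM in the gated cells and 5734 in the cells of the library with under 5 C1q UMIs. The part of RNA from other cells was not tested for Fabp4. Among tissue repair ligands 2 of 9 were higher and 1 lower (median 0.11), and Retnla, a secreted protein induced by interleukin 4, was at 6116 against 4366, a ratio of 1.40 (1.34 to 1.46). Lgals3 and Lpl were chosen after their values were seen.

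Transcription factors shifted in part. Of 17, 4 were past 2-fold higher and 1 lower (median log2 ratio 0.14). The higher genes were Batf3, needed by cross-presenting dendritic cells, at 133 CPM against 41.3, a ratio of 3.22 (2.24 to 4.68), and Id2, Nr4a2 and Relb. The lower gene was Maf, a factor of resident macrophages, 2.90-fold lower. These genes were named after their values were seen. Interferon response genes (0 of 6 higher, 1 lower, median -0.37), cathepsins and lysosome genes (0 of 13 higher, 1 lower, median -0.39) and immediate early genes (0 of 13 in either direction, median -0.30) had few members past 2-fold.

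Against serosal-like macrophages, the gated cells had far more class II RNA and less of the clotting and matrix programme. Of 2724 genes, 197 were past 2-fold higher (7.23%) and 238 lower (8.74%), 16.0% in either direction, with a median log2 ratio of -0.04. All 4 red cell genes were higher (median 2.84). Without the cells rich in haemoglobin or fibroblast RNA, 0 of 4 were (median 0.42), while 8 of 11 class II genes were higher (median 1.88) and 7 of 9 clotting genes lower (median -3.29). Of 11 class II genes 8 were higher and 0 lower (median 1.83), with H2-Aa 8.71 times (8.09 to 9.40) and H2-Eb1 9.21 times (8.49 to 10.0) as abundant. Of 10 clotting and fibrinolysis genes 1 was higher and 7 lower (median -2.85), where F10 and Serpinb2 were set by the gate and Thbs1, thrombospondin 1, was 25.9-fold lower (38.0 against 986). Of 11 C-type lectins 9 were higher and 2 lower (median 1.88), and Clec12a among the 9 was used to choose the gated cells. Lyz1 was close in both groups, at 1813 against 1530.0 CPM, a ratio of 1.19 (1.09 to 1.29), although it helped to choose only the gated cells.

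The named genes of this comparison separated the groups further. Ccl12, a monocyte chemoattractant, was at 637 against 21.9, a ratio of 29.1 (17.7 to 51.4), Mgl2 at 661 against 38.3 (17.3, 11.8 to 26.3), Aif1, an actin-binding protein of macrophages, at 316 against 17.8 (17.8, 10.2 to 33.9) and Ms4a7, a membrane protein of macrophages, at 209 against 6.83 (30.6, 12.8 to 95.6). Lilra5, an activating receptor, had 44 UMIs against 1, a ratio of 47.1 (8.02 to 1900.0), and Fgd2, an exchange factor for Cdc42, 36 against 1 (38.5, 6.48 to 1562), and 30 against 0, at least 11.3-fold, without the cells rich in haemoglobin or fibroblast RNA. Lower were Alox15 and Serpinb2, which the gate held down, and Prg4, a lubricating proteoglycan, at 13.2 against 1490.0. Saa3, an acute phase protein, was 82.8-fold lower (65.1 to 107), Fabp7, a fatty acid carrier, had 1 UMI against 105 (98.2-fold, 17.2 to 3914) and Padi4, which converts arginine to citrulline, 1 against 78 (72.9-fold, 12.7 to 2917). Saa3 at 97.9 CPM in the gated cells was near its 104 in fibroblasts.

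Against monocytes, the gated cells had the macrophage genes and more chemokine RNA, and less of the monocyte genes. Of 2771 genes, 308 were past 2-fold higher (11.1%) and 266 lower (9.6%), 20.7% in either direction, with a median log2 ratio of -0.15. The C1q genes and the monocyte choice on Ccr2 and Ly6c2 were fixed by the gates. Of 11 class II genes 8 were higher and 1 lower (median 1.25), with H2-Aa at 6.46 times (5.84 to 7.17). Of 16 chemokines 13 were higher and 1 lower (median 2.31), among them Pf4 at 1624 against 129 CPM. The genes of monocyte-derived macrophages ran the other way, with 3 of 17 higher and 10 lower (median -1.33).

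Ccr2 itself was lower in the gated cells than in monocytes, at 376 against 946 CPM, and Lyz1 was higher, at 1813 against 82.7. Ms4a7 had 143 UMIs against 1, a ratio of 58.1 (10.3 to 2312), Vcam1, an adhesion molecule, 99 against 1 (40.2, 7.06 to 1605) and Meg3, a noncoding RNA, 109 against 1 (44.3, 7.79 to 1766). Without the cells rich in haemoglobin or fibroblast RNA, Meg3 had 8 UMIs against 1. Lower were Ly6c2, the surface marker of classical monocytes, at 43.9 against 1543, and Chil3 at 62.9 against 2057. Neutrophil and granule genes Lcn2 (27.1-fold lower, 13.1 to 64.6), Mmp8 (27.1-fold, 11.8 to 76.4), Wfdc21 (25.3-fold, 11.7 to 65.2) and Mcemp1 (22.1-fold, 11.1 to 50.2) were lower too. Neutrophil markers summed to 5556 CPM in the monocytes and 443 in the gated cells, while 4 of 4 red cell genes and 3 of 3 fibroblast genes were higher in the gated cells (medians 4.21 and 3.32). Without the cells rich in haemoglobin or fibroblast RNA, 0 of 4 red cell genes and 0 of 1 fibroblast gene compared were higher (medians 0.26 and 0.53), 8 of 11 class II genes were (median 1.44) and 14 of 16 chemokines were (median 2.39). The part of neutrophil RNA in the ratios was not tested.

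The gated cells were not uniform. At a fixed 1000 UMIs per cell, the ratio of variance to mean had a median of 1.07 over 1285 genes and was 26.3 for Retnla, 16.5 for Apoe, 9.17 for Lyz1, 8.90 for Ccl8 and 8.87 for Cxcl2, which were chosen after their values were seen. The haemoglobin gene Hbb-bs had the highest value, 215, with up to 342 UMIs in a cell. Dcn and Cxcl14, genes of fibroblasts, had 11.75 and 9.55, above Lyz1. The spread and the splits that follow used all gated cells, and were not repeated without those rich in haemoglobin or fibroblast RNA. Retnla had a UMI in 45.5% of the thinned cells and up to 80 UMIs in 1 of them.

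The gated cells were split by a Ccr2 UMI. Since the gate required Ccr2, Clec12a or Lyz1, all cells without one of these genes hold another of them, so the rule itself shapes each split. The 96 cells with it had a median depth of 3990.0 UMIs and the 80 without one of 3102.5, and the part of depth in the split was not tested. Ratios of CPM were 4.22 for Retnla (8750.0 against 2075, interval 3.86 to 4.62), 5.01 for Fn1 (3.61 to 7.11) and 5.35 for S100a4 (3.49 to 8.55) in favour of the cells with Ccr2. Lyz1 (4.10 times), Batf3 (3.58) and Plaur (3.50, the urokinase receptor) were higher too, and Chil3 had 43 UMIs in the cells with Ccr2 and 0 in the others. Cells without a Ccr2 UMI had more Ccl8 (186 in the cells with Ccr2 against 1023), Apoe (6229 against 19190.0) and Ms4a7 (86.9 against 396). Class II RNA lay close on both sides, with ratios of 0.968 for Cd74 (0.940 to 0.997) and 0.820 for H2-Aa (0.780 to 0.862).

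The cells were split by the other 2 markers in the same way. The 78 cells with a Clec12a UMI had a median depth of 3579 UMIs against 3502.5 in the 98 without, and had more H2-Aa (1.70 times, 1.62 to 1.79), Cxcl16 (3.70 times, 2.45 to 5.73), Ms4a7 (3.61 times) and Ccl24 (3.23 times), an eosinophil chemokine. They had less Fn1 (133 against 851 CPM), Retnla (2699 against 9038) and Il6 (38.1 against 136). The 109 cells with a Lyz1 UMI had more Retnla (4.03 times) and Ccl24 (4.73 times), and less Plac8 (70.1 against 340), with H2-Aa at a ratio of 0.968. All these genes were chosen after their values were seen, and the cells are not replicates, so the ratios describe 176 cells of 1 library.

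The same limits were applied to the intimal libraries, where 14 to 72 cells met them. There were 14 cells in the first descending library (0.690%), 10 in the second (0.469%) and 72 in the arch library (3.32%, 2.60 to 4.16%), with median depths of 5001.5, 5924 and 9667.5 UMIs against 3527 in the adventitia. Their Ccr2 levels were 227, 283 and 44.1 CPM, against 376 in the adventitia. Endothelial markers summed to 921, 583 and 2005 CPM there and to 81.9 in the adventitial cells. Since the dissection, the mice and the library differ as well, tissue cannot be told apart from them.

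UMIs were summed over the gated cells of each library and the adventitia was tested against the 2 descending libraries by quasi-likelihood in edgeR, with p-values adjusted by Benjamini-Hochberg over 6254 genes and a threshold of 0.05. Of these, 92 were higher in the adventitia (1.47%) and 71 lower (1.14%), 2.61% in either direction, and the median log2 fold change was 0.04. Of the 92, 32 had 0 UMIs in both descending libraries, and of the 71, 14 had 0 in the adventitia. Such genes could enter the test only through the other libraries. The fit had 1 residual degree of freedom and an infinite prior, so 1 spread trend, taken from the descending pair, stood for every gene and library. With the highest doublet scores removed, 0 genes were called in either direction (edgeR, with 359 genes at an unadjusted p under 0.05), and with DESeq2 22 were higher and 21 lower, all 43 among the 163. The labels do not say whether the 2 descending libraries came from separate sets of mice beyond 6 each, so their spread may be technical.

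Most of the called genes were also abundant in the rest of their library. Of the 92 higher genes, 66 had more CPM in the other cells of the adventitial library than in the gated cells, and of the 71 lower genes 47 did so in the descending libraries. Of the 10 largest folds in each direction, 16 of the 20 genes were of this kind, all but Ccl8, Hspa1b, Clec1b and Cd207. Higher were the brown fat genes Ucp1, which makes heat, Cidea, of lipid droplets, and Cox8b and Cox7a1, of the respiratory chain, with Fabp3, a fatty acid carrier, the antibody joining chain Jchain, the protease inhibitor Slpi and haptoglobin, Hp. All 8 were at 0 UMIs in the descending cells, with bounds from at least 10.3-fold (Fabp3) to at least 36.5-fold (Ucp1). They had at most 3 UMIs in the arch library (Cox7a1), so they entered the test through the adventitia and their calls are not read as results. Ucp1 was at 762 CPM in the gated cells and 905 in the rest of the library, and Jchain at 573 and 3334. Lower were Gja4, Bmx and Nos3, genes of endothelium, with Cytl1, Adh7, Gkn3, 1500015O10Rik and Smoc1, all at 0 in the adventitial cells and all at a higher level in the rest of the descending libraries. The part of RNA from other cells in these calls was not tested.

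Among the called genes, 14 higher and 23 lower ones had at least 2 times the level of the rest of their library. Of 16 chemokines tested, 8 were called higher and 1 lower (median log2 fold change 1.48), and 6 of the 8 were among those 14. The other 2, Cxcl13 (143 CPM against 205 in the rest) and Ccl5 (134 against 1386), were not. Cxcl13 had 0 UMIs in the intimal libraries and entered the test through the adventitia. Ccl8 had 0 UMIs in both descending libraries, 23 in the arch library and 353 in the adventitia, at least 24.7-fold higher (adjusted p = 1.03e-10, edgeR, and 0.719 with the highest doublet scores removed), with 147 CPM in the rest of the adventitial library. Ccl7, a monocyte chemoattractant, had 1 and 2 UMIs in the descending libraries, 22 in the arch library and 611 in the adventitia, a log2 fold change of 5.67 (SE 0.736, adjusted p = 1.13e-11, edgeR). Ccl12 was at 108 and 33.3 against 638, a log2 fold change of 3.36 (SE 0.619), and Ccl24 had 3 and 0 UMIs against 173. Ccl2 and Pf4 were called higher by 1.81 and 1.79 on the log2 scale. The rest leaves out all cells with at least 5 C1q UMIs, so also the serosal-like and Lyve1 macrophages. In the Lyve1 macrophages all 6 were more abundant than in the gated cells, without the cells rich in haemoglobin or fibroblast RNA. There Ccl8 was at 3317 CPM against 568 in the gated cells, Ccl7 at 1671 against 976 and Pf4 at 4892 against 1865. Apart from Ccl8, these chemokines were chosen after their values were seen.

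The others with at least 2 times the level of the rest included stress and enzyme genes, chosen after their values were seen except for Hspa1b. Hspa1a, a heat shock protein induced by many kinds of stress, was at 120 and 16.7 CPM in the descending libraries and 853 in the adventitia, a log2 fold change of 3.79 (SE 0.607, adjusted p = 1.29e-07, edgeR). Its near-identical copy Hspa1b had 0 UMIs there, 5 in the arch library and 142 in the adventitia, at least 9.94-fold higher. Hspa1b entered the test through the adventitia, so its call is not read as a result. Ier3, Hmox1, which breaks down haem, Gda, Cbr2 and Ppbp were called too, the last with 38 UMIs from 3 cells. Lyz1 is counted among the called genes too, but it helped to choose the cells, so its call is not read as a result. Its descending libraries were far apart at 1077 and 66.6 CPM.

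Genes lower in the adventitia included those of intimal macrophages. Of the 5 genes of that list that were tested, 4 were lower and 0 higher (median log2 fold change -2.43). Of the 4, Cd9, a tetraspanin, was at 658 and 833 CPM in the descending cells but at 1080.0 and 1058 in the rest of those libraries. Mmp12 was at 1209 and 1982 CPM in the descending libraries, 847 in the arch library and 57.0 in the adventitia, a log2 fold change of -4.48 (SE 0.595, adjusted p = 3.45e-11, edgeR). All 3 intimal libraries were above the adventitia. Itgax, the integrin CD11c, was at 95.8, 183, 93.2 and 8.77 (log2 fold change -3.60), and Cx3cr1, the fractalkine receptor, at 156, 350, 85.7 and 36.6 (-2.43). Mmp13, a collagenase, was at 622 and 800 against 42.4 (-3.75), and Clec4n, the lectin Dectin-2, at 838 and 383 against 55.6 (-3.20). Cd207, the langerin of Langerhans cells, and Clec1b, the receptor CLEC-2, had 0 UMIs in the adventitia against 10 and 14 in the descending libraries together, at least 15.9-fold and 22.2-fold lower. Apart from Clec1b, Cd207 and the list genes, these were chosen after their values were seen.

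**Figure D4:**
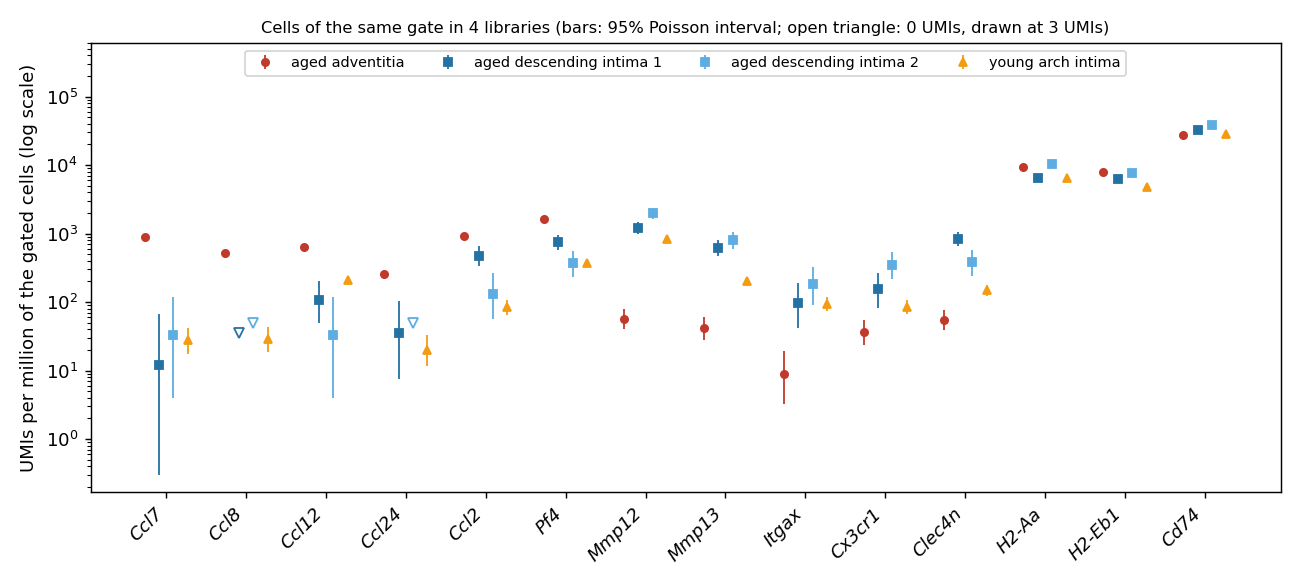
CPM (log axis) of 14 genes in the cells that met the same limits in each of the 4 libraries, with 95% exact Poisson intervals and open triangles at the level of 3 UMIs where a library had none. Ccl7, Ccl8 and Ccl12 lie highest in the adventitia, Mmp12 and Mmp13 lowest, and H2-Aa lies between 6376 and 10210.0 in all 4 libraries.

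Class II genes did not pass the test. Of 13 tested, 0 were called in either direction by edgeR (median log2 fold change 0.15). H2-Aa was at 6452 and 10210.0 CPM in the descending libraries, 6376 in the arch library and 9248 in the adventitia, which lay between the descending pair (log2 fold change 0.46, SE 0.327, adjusted p = 0.879, edgeR). H2-Eb1 was at 6272 and 7679 against 8039, a log2 fold change of 0.51 (SE 0.336, adjusted p = 0.853, edgeR), and Cd74 had one of -0.08 (SE 0.266). Ccr2 is a gene of the gate, so its fold change is not read as a result. Neutrophil genes (3 of 3 tested called higher) and red cell genes (4 of 4) were higher in the adventitia, with the neutrophil list at 443 CPM in the adventitial cells and 0 UMIs in both descending libraries. Those 3 neutrophil genes had at most 1 UMI in any intimal library, so they entered the test through the adventitia. All these genes were more abundant in the rest of the adventitial library, such as S100a8 (1077 CPM against 189) and Hbb-bs (32420 against 11230). Without the cells rich in haemoglobin or fibroblast RNA, 571 of the 7677 Hbb-bs UMIs were left. The part of RNA from other cells was not tested.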

How the data were processed

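Single-cell RNA was measured in 4 libraries with a 10x Chromium kit for 3' ends, per the labels' protocols. The authors deposited counts of UMIs for each barcode and gene, made with Cell Ranger 2.1.2 on mm10, per the submitters' processing notes. Each listed 27998 genes, of which 27645 had a symbol. The total counts per library ran from 13181305 to 29370967 UMIs.

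Barcodes with 200 genes or more and no more than 10% of UMIs from mitochondrial genes were kept and groups were set by limits on raw UMIs. The members and the gene lists were chosen with earlier results of these data known. UMIs were summed per group, with exact Poisson intervals for levels and conditional binomial intervals for ratios (95%), and a floor of 3 UMIs over a group at 0. These intervals cover counting error only. Shares were computed a second time after thinning cells to 1000 UMIs. Doublet scores came from Scrublet in scanpy 1.11.5; the automatic threshold called 2 adventitial barcodes, so the highest scores were called instead, 646 as the loading predicts, and no barcode was removed in the values reported.

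Sums per library were tested with edgeR 4.0.16 in R 4.3.3 (TMM factors, filterByExpr, Benjamini-Hochberg adjustment), after a test on simulated data; DESeq2 1.42.0 was an alternative. Named genes were the 12 highest and 12 lowest ratios against Lyve1 macrophages, the 6 highest and 6 lowest against the other groups, the 10 largest fold changes each way in edgeR, and up to 4 leading genes of each list; others are marked as chosen after their values were seen. Promoters were from RefSeq, GRCm38.p6. Python 3.11.15, numpy 2.4.6, scipy 1.17.1, pandas 2.3.3 and matplotlib 3.10.9 were used.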

Additional observations from a re-analysis of the deposited data

How the results depend on the processing

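The adventitia is 1 library whose number of mice is not given, so spread between animals is not measured, and ratios of genes with few UMIs have wide counting intervals. No paired analysis was possible because the adventitia is a single library, so the groups compared share fewer than 2 replicate numbers. No result reversed. The number of cells was 290 with at least 3 C1q UMIs, 109 with both excluded sets at 0 and 106 with at most 5% mitochondrial UMIs, against 176. Thinned to 1000 UMIs, the shares with a UMI were 28.98% (Ccr2), 38.07% (Lyz1), 16.48% (Clec12a), 94.32% (H2-Aa) and 92.05% (H2-Eb1).

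Against Lyve1 macrophages, 66 genes were higher with at least 100 UMIs, 252 higher and 250 lower with no CPM minimum, and 42 and 43 at a fold of 3. Against serosal-like macrophages the counts were 105 and 142 with at least 100 UMIs, 305 higher with no CPM minimum, and 92 and 124 at a fold of 3. Against monocytes they were 117 and 89 with at least 100 UMIs, and 186 and 87 at a fold of 3. Against the descending intima, 45 genes were lower without the arch library in the fit, 0 were called with the highest doublet scores removed, where edgeR's prior degrees of freedom were 0.877 and not infinite, and 22 higher and 21 lower with DESeq2. Without either descending library no degree of freedom was left, so the fit gave values only. The other counts of genes and cells stayed within 1.5 times. Of the values of single genes under these settings, 331 stayed within counting error, stayed called or kept their side. Another 21 moved by more than counting error. A further 29 values of called genes fell short of the threshold in the same direction, with the highest doublet scores removed, with DESeq2 or without the arch library.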
